A study of Mus musculus with 24 samples.

Results

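Keratins are the intermediate filament proteins of epithelial cells, and their genes were measured here in pools of mouse blastocysts, the embryo stage at which an outer epithelium, the trophectoderm, surrounds the inner cell mass. The members were the probes whose gene name in the array files is Krt followed by digits alone: 64 probes for 48 genes, out of 56605 non-control probes for 37006 gene names. The lettered keratins and the keratin-associated proteins of hair (Krtap) were not members. RNA of 24 pools was hybridised to one array each, in 6 conditions labelled HC1 to HC6 with 4 pools per condition. Expanded blastocysts had been frozen and were pooled by 15, except in HC6, where pools were of 20, so that code and the pool size cannot be told apart. The series title names bisphenol A and membrane estrogen receptor activation, but the labels give no genotype, strain, agent or control for any code, so the conditions were compared with one another. No label says that pools of one condition came from separate litters, and the p-values measure only the spread between these pools.

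A keratin filament is built from pairs of an acidic type I keratin and a basic type II keratin, and neither partner forms filaments alone. Different epithelia use different pairs: Krt8 (type II) with Krt18 (type I) in simple, single-layered epithelia, Krt5 with Krt14 in the basal layer of skin, Krt1 with Krt10 in the layers above it, and a large set of hair keratins in the hair shaft. In the mouse embryo Krt8 and Krt18 are known as early products of the trophectoderm, where Krt7 and Krt19 are also found.

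A spot counted as detected where the scanner software set its flag for a signal well above background. A gene took the class of its probe with the most such arrays. Of the 48 keratins, 11 were well above background on all 24 arrays (22.9%), 5 on 12 to 23 arrays, 18 on 1 to 11 arrays and 14 on none (29.2%). Among the other 36958 gene names on the array, 35.3% were well above background on all 24 arrays and 27.9% on none. The flag was also set for 143 of 7392 readings of negative control spots (1.93%), so a keratin seen on a single array is close to that background. Between 11 and 20 keratins were well above background on an array, the fewest in HC5 replicate 4, where 39.1% of all spots had the flag.

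**Figure D1:**
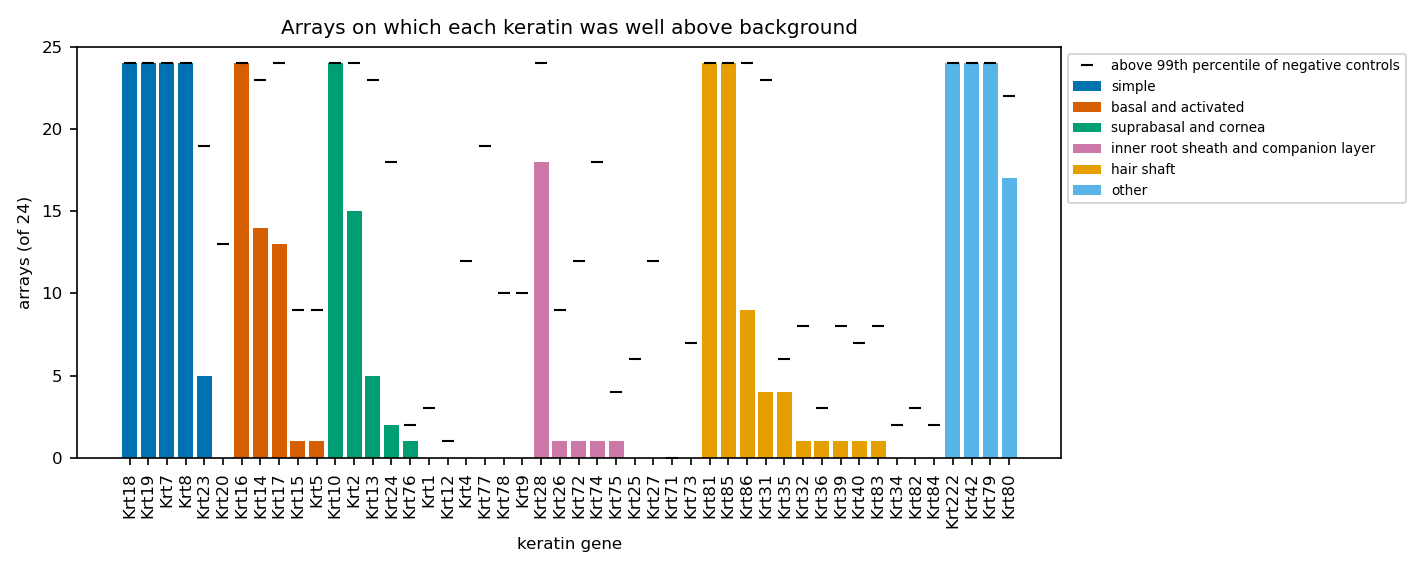
Number of arrays, of 24, on which each of the 48 keratins was well above background (bars, coloured by the tissue in which the keratin is best known). The black dashes give the number of arrays above the 99th percentile of the negative control spots, a looser limit. Krt7, Krt8, Krt18 and Krt19 reach 24 arrays, while most hair and skin keratins have bars near 0.

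Of the 6 keratins of simple epithelia, Krt7, Krt8, Krt18 and Krt19 were well above background on all 24 arrays, and both probes of Krt8 were. Krt23, a type I keratin of glandular and intestinal epithelia, had the flag on 5 arrays. Krt20, the keratin of intestinal and urothelial surface cells, had it on none. The detected set thus held the type II members Krt7 and Krt8 and the type I members Krt18 and Krt19.

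The 5 keratins of basal or activated skin cells were uneven. Krt16, which is induced in wounded skin, was well above background on 24 arrays with one probe and on 23 with the other. Krt14 had the flag on 14 arrays and Krt17 on 13. Krt5, the type II partner of Krt14, and Krt15 had it on 1 array each.

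Of the 11 keratins of suprabasal and corneal layers, Krt10 was well above background on all 24 arrays, Krt2 on 15 and Krt13 on 5. Krt1, the type II partner of Krt10 in skin, was on none, as were Krt4, Krt9, Krt12, Krt77 and Krt78. Krt24 had the flag on 2 arrays and Krt76 on 1. Markers of skin other than keratins were mixed: of 11 on the array, Lor (loricrin, a protein of the cornified envelope) and Tgm3 (a transglutaminase) were well above background on 24 arrays, while Ivl, Dsg1a, Kprp, Lce1a1 and Sprr1b were on none. Between these lay Casp14 on 23 arrays, Calm4 on 11, Tgm1 on 6 and Dsc1 on 2. The part of these skin markers in the Krt10 signal was not tested.

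Of 9 keratins of the inner root sheath and companion layer of hair, Krt28 was on 18 arrays with one probe and 9 with the other. Krt26, Krt72, Krt74 and Krt75 were on 1 array each, and Krt25, Krt27, Krt71 and Krt73 on none. Of 13 hair shaft keratins, Krt81 and Krt85 were on all 24 arrays, Krt86 on 9, and Krt31 and Krt35 on 4 each. Krt32, Krt36, Krt39, Krt40 and Krt83 were on 1 array, and Krt34, Krt82 and Krt84 on none. Krt42, Krt79 and Krt222, which belong to none of these groups, were on all 24 arrays and Krt80 on 17.

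The word silent holds only for the scanner flag. Of the 14 keratins with no flagged array, Krt71 alone also stayed at or below the 99th percentile of the negative control spots on every array, and Krt77 was above that percentile on 19 arrays. By that looser limit 15 keratins were detected on all 24 arrays. Several genes also had probes that disagreed. Krt42 was on 24 arrays with one probe and 1 with the other, and Krt79 and Krt222 were each on 24 with one probe and 0 with the other. The Krt79 probe on 0 arrays is annotated on the strand opposite to the detected one. Of the 3 Krt80 probes, 1 was on 17 arrays and the others on 0. With the probe of fewest arrays in place of the one with most, 7 keratins were on all arrays and 22 on none.

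A pair of hair keratin probes is shown because hair keratin genes are close copies of one another. The probes of Krt81 and Krt83 share a window of 55 bases, in which 4 positions differ. Capitals mark those positions. This was the only probe pair of different keratins, of 1936 compared over at least 30 bases, that matched at 80% or more of the overlap.
Krt81: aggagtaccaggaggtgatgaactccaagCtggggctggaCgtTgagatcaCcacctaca
Krt83: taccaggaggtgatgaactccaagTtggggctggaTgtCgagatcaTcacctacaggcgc
The Krt81 probe lies at chr15:101290583-101290642 and the Krt83 probe at chr15:101263556-101263615, both on the minus strand in the mm9 build named in the file headers. The accession of the Krt83 probe carries the symbol Krt87 in the reference gene table. Krt81 was well above background on 24 arrays while the probe named Krt83 was on 1, and the gene that the reference table calls Krt83, named 5430421N21Rik in the files, was on 8. Whether transcripts of one gene bind the probe of another was not tested, so the signals named for hair keratins, Krt81 and Krt85 included, are uncertain as to gene.

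The levels below are log2 of the background-subtracted signal minus the 75th percentile of the same array, a relative scale on which 1 unit is a 2-fold change. They compare pools for one probe and not one keratin with another. Krt8, the type II keratin of the trophectoderm, had levels of 8.27, 8.67, 8.83 and 8.29 in the pools of HC1, 8.44, 8.56, 8.42 and 8.45 in HC2 and 8.48, 8.46, 8.47 and 8.40 in HC3. The levels were 8.48, 8.68, 8.45 and 8.40 in HC4, 8.37, 8.61, 8.77 and 8.89 in HC5 and 8.58, 8.52, 8.21 and 8.42 in HC6. The highest pool was HC5 replicate 4 and the lowest HC6 replicate 3, a range of 1.60-fold, and every condition overlapped every other.

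Krt18, the type I partner of Krt8, had levels of 10.26, 10.38, 10.51 and 10.01 in HC1, 10.34, 10.27, 10.103 and 10.29 in HC2 and 10.49, 10.42, 10.16 and 10.13 in HC3. The levels were 10.40, 10.54, 10.27 and 10.07 in HC4, 10.31, 10.56, 10.48 and 10.69 in HC5 and 10.43, 10.46, 10.07 and 10.14 in HC6. The range over all pools was again 1.60-fold. HC5 replicate 4 was the highest pool for Krt18 as for Krt8, and all 4 HC5 pools lay above the mean of the other 20, although they overlapped each other condition.

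Krt7, a type II keratin of simple and ductal epithelia, had levels of 2.08, 2.17, 2.33 and 1.96 in HC1, 1.96, 2.42, 1.92 and 2.54 in HC2 and 2.64, 2.02, 2.38 and 1.78 in HC3. The levels were 2.48, 2.16, 2.45 and 2.11 in HC4, 2.44, 2.80, 2.25 and 2.67 in HC5 and 2.40, 1.496, 1.04 and 2.41 in HC6. Krt7 ranged 3.40-fold, and its lowest levels were those of HC6 replicates 3 and 2, while the other HC6 pools lay among the remaining conditions.

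Krt19, a type I keratin that lacks most of the usual tail domain, had levels of 1.36, 2.37, 1.82 and 1.84 in HC1, 2.50, 2.34, 1.78 and 2.82 in HC2 and 2.73, 2.28, 2.58 and 1.96 in HC3. The levels were 2.80, 2.32, 2.72 and 1.80 in HC4, 2.43, 2.94, 2.19 and 2.41 in HC5 and 2.66, 1.75, 1.30 and 2.83 in HC6. Krt19 ranged 3.12-fold. HC6 replicate 3 and HC1 replicate 1 were the lowest pools, and all conditions overlapped.

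**Figure D2:**
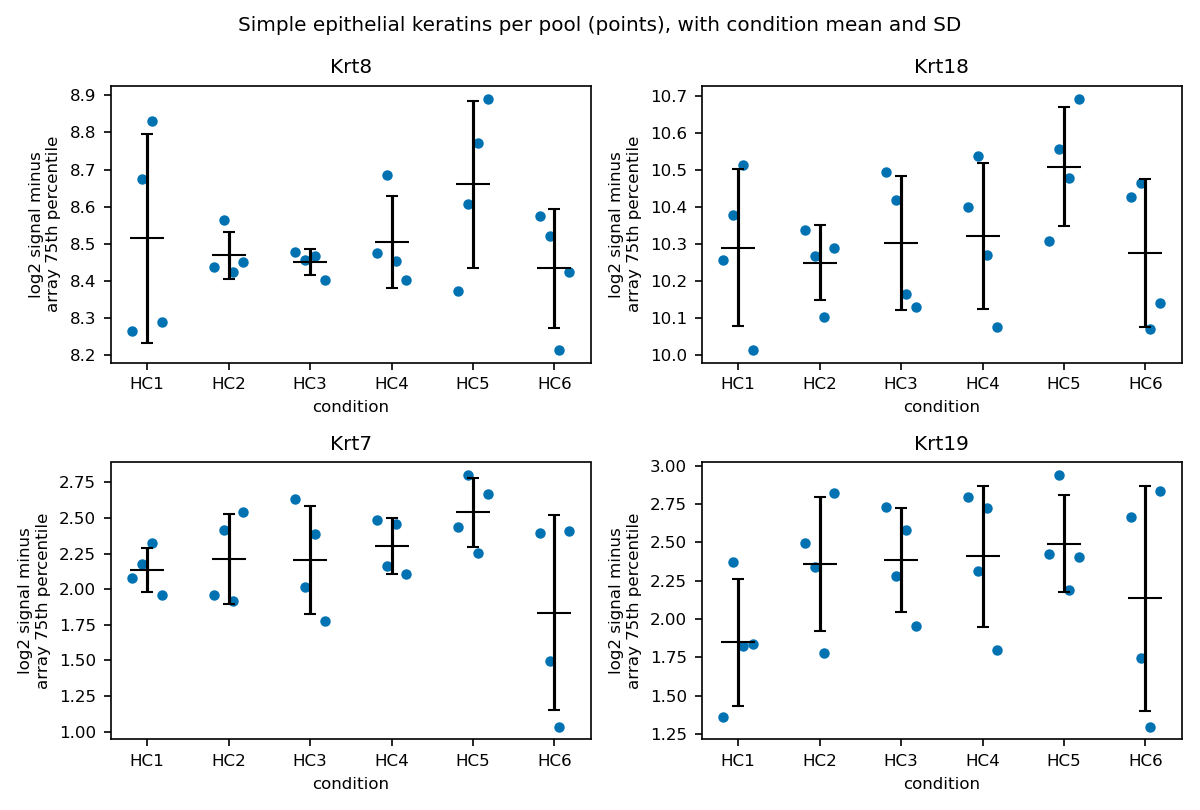
Level of Krt8, Krt18, Krt7 and Krt19 in each pool (points, replicates 1 to 4 from left to right) by condition, on the log2 scale relative to the 75th percentile of the array, with the condition mean and SD (n = 4). The spread within conditions is wide against the differences between their means, and 2 HC6 pools lie low for Krt7 and Krt19.

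A gene was tested where its probe was well above background on at least 4 arrays, which 21 keratins met among 18397 genes. In the moderated F-test of limma over the 6 conditions, 0 of the 21 keratins passed an adjusted p of 0.05, beside 0% of all genes tested. The smallest unadjusted p was 0.05004, for Krt14, and 0 keratins were under 0.05 before adjustment against 2.09% of all genes. In the contrasts of each condition with the other 5, and in all 15 pairs, 0 keratins and 0% of all genes passed. Before adjustment, 3 of 21 keratins were under 0.05 in HC1, 1 in HC3, 4 in HC5, 1 in HC6 and 0 in HC2 and HC4. The shares of all genes were 3.21% in HC1, 1.58% in HC3, 5.48% in HC5, 2.97% in HC6, 2.23% in HC2 and 1.88% in HC4. Over the pairs, 12 of 315 keratin tests were under 0.05 before adjustment, against 2.84% of all tests.

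HC5 held the 4 keratins Krt18, Krt79, Krt81 and Krt85. Krt18 averaged 10.51 ± 0.16 in HC5 and 10.29 ± 0.16 in the other 5 conditions (SD, n = 4 and 20), a log2 difference of 0.22 (95% interval 0.01 to 0.43, limma adjusted p = 0.874). Krt8 averaged 8.66 ± 0.22 in HC5 and 8.47 ± 0.14 in the others, a difference of 0.19 (interval -0.02 to 0.39), with the same adjusted p. The differences of Krt79, Krt81 and Krt85 were 0.27, 0.30 and 0.32. Those of Krt42 and Krt7 were 0.42 (interval -0.04 to 0.89) and 0.40 (interval -0.01 to 0.82). Over the 21 keratins the median difference of HC5 was 0.19, with 16 higher, against a median of -0.01 over all genes tested, of which 47.7% were higher. These keratins share pools and several move together, so the count is not one of separate signals. Without HC5 replicate 4 the differences were 0.11 for Krt8, 0.19 for Krt81 and 0.15 for Krt85, and the median over the keratins was 0.15. The size of the shift also depended on the processing. The median was 0.03 with normexp background correction and quantile normalization, with 14 of 21 higher, and 0.12 in the authors' deposited values. With no filter on dim probes it was 0.22 over 48 keratins, 38 of them higher. Over all genes it was then 0.12, with 66.7% higher, so all genes shared part of that shift. The normexp setting added an offset of 50 to each signal before the log, which shrinks differences of dim probes. With it the bright Krt18 and Krt85 differed by 0.20 and 0.30 in HC5, and the dimmer Krt79 and Krt81 by 0.17 and 0.16.

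Array quality was low in some of the HC5 pools. The HC5 arrays had 41.5%, 43.3%, 43.8% and 39.1% of spots well above background, against 38.6% to 49.7% in the other conditions. Their 75th percentile signals were 79.9, 81.3, 57.8 and 47.3, against 60.9 to 128 in the other conditions, so that HC5 replicates 3 and 4 were the dimmest of the 24 arrays. Over the 24 pools r with the log2 of that percentile, which is itself subtracted to give the levels, was -0.56 for Krt18, -0.32 for Krt8, -0.46 for Krt79, -0.47 for Krt81, -0.39 for Krt85 and -0.78 for Krt222. Among the other keratins on all 24 arrays it was -0.38 for Krt16, -0.04 for Krt42, 0.03 for Krt7, 0.13 for Krt19 and 0.21 for Krt10. The part of array quality in the HC5 differences was not tested.

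In HC6 the median difference over the 21 keratins was -0.16, with 4 higher, against -0.01 over all genes tested, of which 48.2% were higher. That median was -0.06 with normexp and quantile normalization, -0.08 in the authors' deposited values and -0.11 with slide as a block. With no filter on dim probes it was -0.07 over 48 keratins, 20 of them higher, against 52.3% of all genes. Among the 21 keratins Krt7 had the smallest p in HC6. It averaged 1.83 ± 0.68 in HC6 and 2.28 ± 0.28 in the other conditions, a difference of -0.44 (95% interval -0.86 to -0.03, limma adjusted p = 0.999). Without HC6 replicate 3 that difference was -0.18 and the median over the keratins -0.09, and without HC6 replicate 1 the median was -0.27. HC6 replicate 3 also had the lowest summed trophectoderm marker level, 335 against 420 to 499.8 in the other HC6 pools, over 10 markers that were all well above background on 24 arrays. Its summed inner cell mass level was 103, against 95.4 to 106 in the other HC6 pools. HC6 replicate 2, also low in Krt7 at 1.496, had a summed trophectoderm level of 482. HC5 replicate 4 had a summed trophectoderm level of only 359, with Krt7 at 2.67. The part of these markers in the Krt7 level was not tested. In HC4, 7 of the 21 keratins were higher (median -0.04), against 65.1% of all genes (median 0.05). In the authors' deposited values 10 of 20 keratins were higher in HC4, against 50.9% of all genes. In HC1, HC2 and HC3, 10, 12 and 11 of the 21 were higher, against 47.8%, 41.8% and 49.9% of all genes.

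In HC1, Krt42 had the smallest p of any keratin in a contrast. It averaged -0.24 ± 0.43 in HC1 and 0.30 ± 0.40 in the other conditions, a difference of -0.54 (95% interval -1.005 to -0.08, limma adjusted p = 0.9998). Krt19 differed by -0.51 in HC1 (interval -1.02 to 0.01). Of the keratins seen on fewer arrays, Krt14 differed by -1.41 and Krt23 by 1.14 in HC1, and Krt86 by 0.57 in HC3. In HC1 the flag was set on 1 of 4 arrays for Krt14 and on 2 of 4 for Krt23, so these differences rest partly on background signal. With normexp and quantile normalization they were -0.41 for Krt14, 0.24 for Krt23 and 0.14 for Krt86, and in the authors' deposited values -0.52 for Krt14 and 0.17 for Krt86. Single pools also carried part of them: Krt23 differed by 0.53 without HC1 replicate 3, and Krt86 by 0.32 without HC3 replicate 2. Krt13 and Krt31 in HC6, and Krt35 in HC4, were not well above background on any array of the condition, and no fold is given for them. The other members had smallest-p contrasts of 0.17 for Krt10 and -0.19 for Krt17 in HC4, 0.32 for Krt16 in HC1, 0.26 for Krt2 in HC3, 0.34 for Krt222 in HC5, and -0.64 for Krt28 and -0.65 for Krt80 in HC6. Most of these small differences depended on 1 pool or on the processing. Krt16 differed by 0.046 without HC1 replicate 1 and by 0.53 without HC1 replicate 4, Krt17 by -0.059 without HC4 replicate 2 and -0.29 without HC4 replicate 3, and Krt10 by 0.28 without HC4 replicate 4. With normexp and quantile normalization Krt42 differed by -0.33, Krt16 by 0.14, Krt17 by -0.049, Krt2 by 0.035, Krt28 by -0.16 and Krt80 by -0.059. The Krt2 sign turned in the authors' deposited values, and that of Krt80 without HC6 replicate 4, where it was 0.23.

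**Figure D3:**
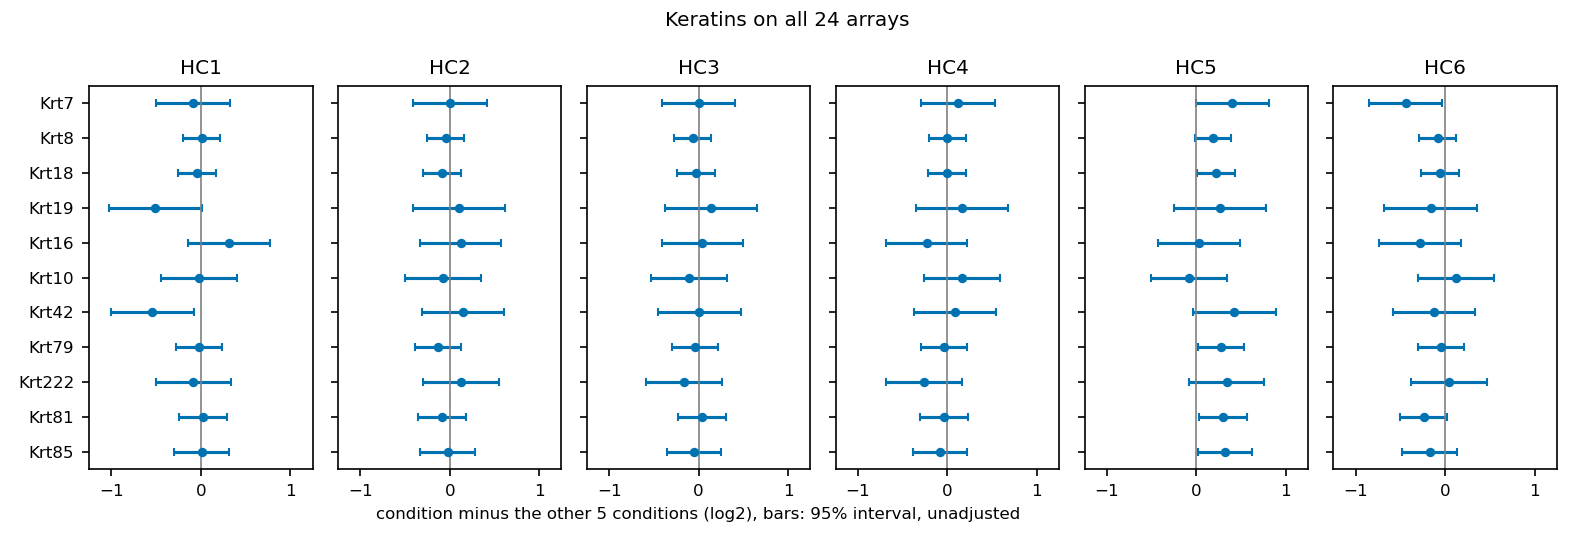
Log2 difference of each condition from the mean of the other 5 for the 11 keratins on all 24 arrays, with unadjusted 95% intervals. Intervals that exclude 0 appear for Krt18, Krt79, Krt81 and Krt85 in HC5, Krt7 in HC6 and Krt42 in HC1, and 0 of these differences passed after adjustment over all genes.

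Because type I and type II keratins work in pairs, the 4 simple keratins were correlated with each other and with Cdx2, a transcription factor of the trophectoderm, over the 24 pools. Of these 10 relations, 5 passed an adjusted p of 0.05 for Pearson's r and 2 for Spearman's rho. Krt8 and Krt18 had r = 0.79 and rho = 0.84, and Krt7 and Krt19 had r = 0.78 and rho = 0.81 (two-sided permutation test with 100000 resamples, adjusted p = 0.0001 for r in both and 5e-05 for rho in both). The unadjusted p of 1e-05 for both rho values, and for r of Krt8 with Krt18, is the smallest these resamples can give. Without the 2 pools farthest from the median, r was 0.72 for Krt8 with Krt18 and 0.70 for Krt7 with Krt19. With condition means removed it was 0.75 and 0.84, in the same order of pairs.

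The arrays came from 3 slides of 8, and each slide held pools of all 6 conditions. Within slides 1, 2 and 3, r of Krt8 with Krt18 was 0.42, 0.80 and 0.97 (exact permutation test, adjusted p = 0.512, 0.0486 and 0.000992). For Krt7 with Krt19 it was 0.57, 0.88 and 0.79 (exact permutation test, adjusted p = 0.341, 0.0454 and 0.137). Both relations were thus positive on every slide. Neither passed on slide 1, and Krt7 with Krt19 did not pass on slide 3. Krt18 also correlated at -0.55 with the share of spots well above background, and Krt8 at -0.36, and the part of array quality in their relation was not tested.

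The remaining relations were weaker on this scale. Krt8 with Krt7 had r = 0.47 (permutation test, adjusted p = 0.0427), and so had Krt18 with Krt7 and Krt8 with Cdx2, at the same adjusted p. None of these 3 passed for rho on this scale, and without the 2 pools farthest from the median r was 0.42, 0.40 and 0.18 in that order. With slide means removed r was 0.54, 0.55 and 0.52 in that order. All 3 then passed for r and rho (permutation test, adjusted p from 0.0161 to 0.0201 for r and from 0.0313 to 0.0396 for rho). Krt18 with Krt7 depended on the processing: with normexp, with quantile normalization and in the authors' deposited values r was 0.70, 0.64 and 0.67 and rho 0.73, 0.72 and 0.72, all of which passed (permutation test, adjusted p from 0.0013 to 0.0039 for r and from 0.00055 to 0.00095 for rho). With the first of these, r of Krt8 with Krt18 was 0.63, and with the second 0.59, both below that of Krt18 with Krt7. With normexp and in the authors' values the other Krt8 probe was the brighter, so Krt8 values there also reflect a change of probe. Krt18 with Krt19 had r = 0.38 and Krt8 with Krt19 had r = 0.30, neither of which passed. Krt18, Krt7 and Krt19 had r of 0.17, 0.12 and -0.02 with Cdx2 (adjusted p from 0.524 to 0.938).

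**Figure D4:**
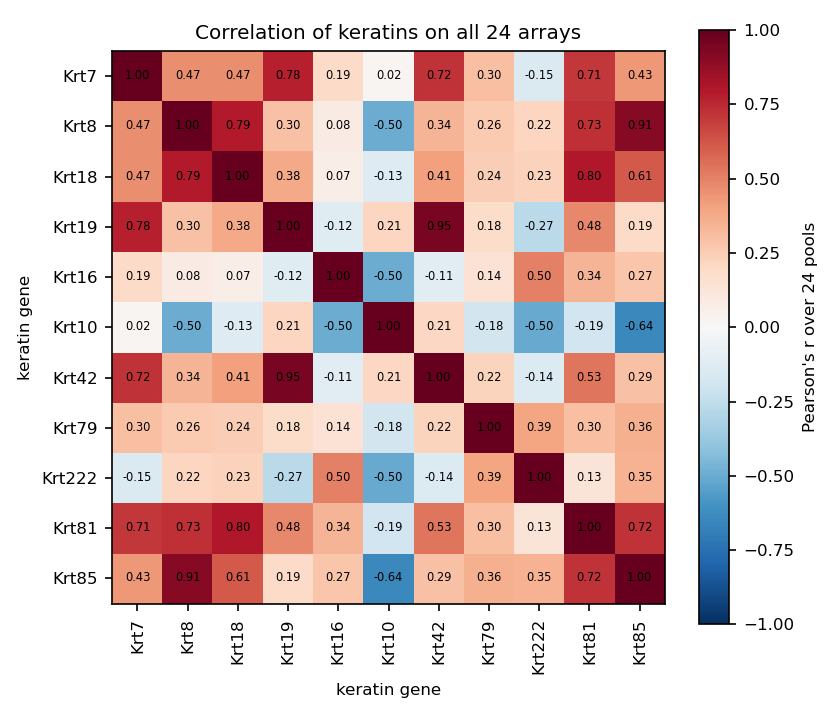
Pearson's r over the 24 pools between the 11 keratins on all 24 arrays, with red positive and blue negative. Krt8, Krt18, Krt81 and Krt85 correlate with one another, as do Krt7, Krt19 and Krt42. The groups are not separate, as Krt81 is at 0.71 with Krt7 and 0.53 with Krt42. Krt10 is at -0.50 with the Krt8 probe plotted here and at 0.24 with the other Krt8 probe, and Krt85 at 0.91 and 0.34.

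The Krt8 result depends on the probe. The 2 Krt8 probes had mean levels of 8.51 and 8.50, and their levels correlated at only r = 0.57 over the pools. With the other probe, chosen for this comparison after seeing the data, Krt8 had r = 0.82 with Krt18 and 0.45 with Krt7. Its r with Cdx2 was 0.22, which did not pass, and its r with Krt19 was 0.47, which did. Its r with Krt10 was 0.24, so the sign of that relation turned with the probe.

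Among 18141 genes with a value on every array, the 5 with a symbol whose pattern was most like that of Krt8 were Krt85, Atp6v0c, Bmyc, Smim20 and Ciapin1, with r from 0.91 to 0.81. Krt18 was rank 14 of that list, Krt7 rank 1550 and Krt19 rank 3649. For Krt18 the 5 were Slc9a3r1, Dad1, Psmb3, Flad1 and Krt81, with r from 0.83 to 0.80. Krt8 was rank 13 there, Krt7 rank 1411 and Krt19 rank 2522. No p is attached to these ranks.

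Krt85 with Krt8, and Krt42 with Krt19, were singled out after their values were seen and have no test. Krt85 and Krt8 had r = 0.91 and rho = 0.83 over 24 pools, but with the other Krt8 probe r was 0.34. Krt42 and Krt19 had r = 0.95 and rho = 0.89, with 0.97, 0.97 and 0.92 within slides 1, 2 and 3. Their probes, shown because they carry this relation, matched at 19 of 39 bases at the best offset.
Krt42: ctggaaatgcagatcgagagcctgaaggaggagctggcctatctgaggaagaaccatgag
Krt19: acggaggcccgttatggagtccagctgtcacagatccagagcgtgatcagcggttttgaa
The Krt42 probe lies at chr11:100128252-100128311 and the Krt19 probe at chr11:100002392-100002451, both on the minus strand in mm9. The second Krt42 probe was well above background on 1 array, so the Krt42 signal rests on 1 probe.

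**Figure D5:**
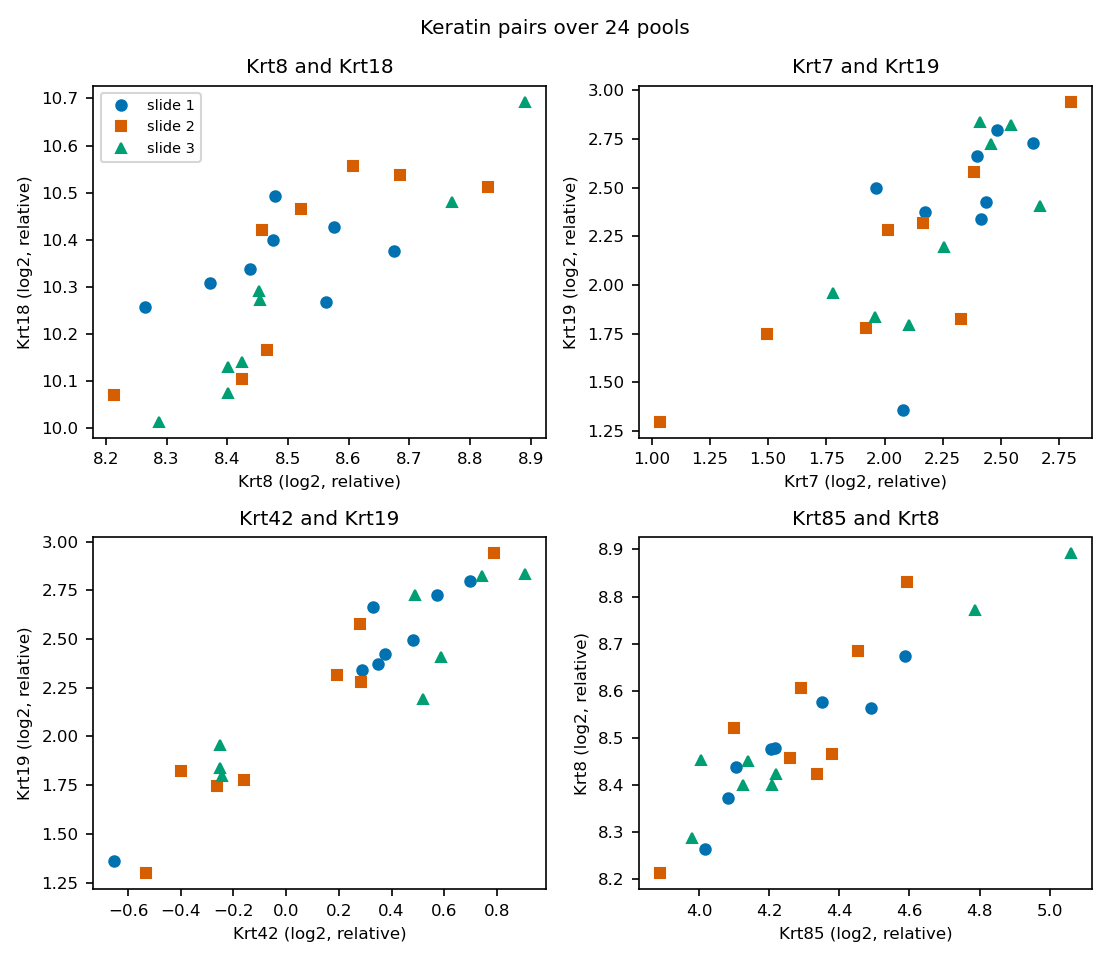
Levels of Krt8 and Krt18, Krt7 and Krt19, Krt42 and Krt19, and Krt85 and Krt8 in the 24 pools, log2 relative to the 75th percentile of the array, with symbols by slide. Each pair rises together, most tightly Krt42 with Krt19 at r = 0.95, and the symbols of the 3 slides are mixed in each panel.

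The windows upstream of Krt8 and Krt18 are shown because these genes moved together. They are the 250 bases before each gene's start in RefSeq, build GRCm38.p6, whose table held 34 of the 48 keratins, at chr15:102004343-102004592 on the minus strand and chr15:102027966-102028215 on the plus strand. Capitals mark the motif matches.
Krt8: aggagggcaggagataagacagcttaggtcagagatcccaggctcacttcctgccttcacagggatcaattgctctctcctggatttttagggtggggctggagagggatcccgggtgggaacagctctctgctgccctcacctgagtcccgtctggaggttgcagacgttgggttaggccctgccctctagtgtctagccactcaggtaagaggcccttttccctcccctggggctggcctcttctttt
Krt18: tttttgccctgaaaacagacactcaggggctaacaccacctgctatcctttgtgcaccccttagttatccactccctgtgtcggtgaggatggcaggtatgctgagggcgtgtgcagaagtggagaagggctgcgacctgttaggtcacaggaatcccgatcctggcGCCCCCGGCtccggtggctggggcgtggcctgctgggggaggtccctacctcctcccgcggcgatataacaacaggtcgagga
Both strands were searched for the TATA-box letters TATAAA, the GC-box letters GGGCGG, the AP-2 letters GCCNNNGGC and the TEAD letters CATTCC. The Krt18 window held 1 AP-2 match, which overlapped no other motif, and the Krt8 window held none of the 4. Of 32851 such windows, 13.7% held the AP-2 letters, 12.4% the TATA box, 32.7% the GC box and 12.6% the TEAD letters. A match is a run of letters and not a shown binding site.

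Genes that work with keratins were measured on the same arrays. Of 13 desmosome genes, 9 were tested, including Dsp (desmoplakin, which anchors keratin filaments), Dsg2 and Jup, and of 13 keratin linkers and partners all 13 were, including Plec (plectin) and Ppl (periplakin). Of 16 other intermediate filament genes 13 were tested, including Vim and the lamins, and of 20 transcription factors of trophectoderm and surface epithelium 19 were. In the F-test and in the contrasts, 0 genes of these 4 lists passed, and the smallest adjusted p of the F-test in each was 0.9998 (limma).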

How the data were processed

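Total RNA of 24 blastocyst pools was labelled with Cy3 and hybridised to one-colour Agilent arrays. Spot intensity in the deposited files was, per the file headers, background subtracted within each array by the scanner software (Agilent Feature Extraction, version 10.10.1.1) and not normalized between arrays. The authors' deposited table holds log2 values for 27101 probes, and its normalization is not given in the sources used here. The submitters' processing notes also name limma. The sequence of 1 keratin probe is not reported here, and that probe was left out of the probe comparison.

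Control and outlier spots were left out, log2 signals were averaged per probe, and each array's 75th percentile over probes was subtracted. The brightest probe that passed the background filter stood for its gene. Spots well above background made up 38.6% to 49.7% of an array, and the number of arrays limits the precision. One model with 6 condition means was fitted to 18397 genes with limma 3.58.1 in R 4.3.3 (eBayes, Benjamini-Hochberg at 0.05). Correlations used Python 3.11.15, numpy 2.4.6 and scipy 1.17.1, and figures matplotlib 3.10.9.

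All keratins were placed in a detection class, the 4 simple keratins were given per pool, and every tested keratin by its contrast of smallest p. The members, lists and tests were chosen with earlier results of these data known. On simulated arrays of 18397 genes, the contrast of HC1 recovered 46% of genes changed by 1.5-fold and 70% of those changed by 2-fold, and the F-test 32% and 44%. Same-numbered pools of different conditions had correlations of their deviations from -0.32 to 0.34 (60 pairs, median -0.01). Differently numbered pools had them from -0.38 to 0.36 (180 pairs, median -0.01). Over 0.1 were 25 of the 60 pairs and 57 of the 180. The replicate numbers were not taken as pairing in the main fit. Alternatives covered normalization, filters, probe choice, slides and left-out pools. The normexp alternative used an offset of 50.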

Additional observations from a re-analysis of the deposited data

Results flagged for a closer look

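Of 41 groups of 4 pools examined, 2 held a pool far from the others, and chance alone gives about 1 in 20 groups. Krt10 in HC4 replicate 4 was at 0.48 on the log2 scale, against 0.90 to 0.95 in the other HC4 pools. Krt31 in HC6 replicate 1 was at -2.80, against -3.78 to -3.65 in the other HC6 pools, and its probe was not well above background on any HC6 array. The causes were not tested.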

How the results depend on the processing

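The count of 0 called keratins held in the F-test, the contrasts and the pairs under all 36 alternatives, the slide blocks and the replicate block included. With the replicate block, 0 keratins passed and the Krt18 difference of HC5 was 0.22 (limma adjusted p = 0.843). The 21 tested keratins were followed over the alternatives, each in its contrast of smallest p. Among these the lowest adjusted p was 0.396 (limma), for Krt79, Krt81 and Krt85 in HC5 with no filter on dim probes. Their other contrasts, and keratins tested only without the filter, were not searched for a lower value. The Krt2 difference in HC3 turned to -0.0107 in the authors' deposited values, and the Krt80 difference in HC6 to 0.23 without HC6 replicate 4 (from -1.198 to 0.23 over left-out pools). The cause was not tested.

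Detection moved more. Keratins on no array numbered 1 by the negative control limit and 22 by the probe with fewest arrays, which left 7 on all arrays. Keratins kept numbered 34 with at least 1 array and 11 with all 24. Leaving out a replicate number gave 14 to 19 keratins on no array and 11 on all in each case.

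Krt8 with Krt18 and Krt7 with Krt19 passed with normexp, with quantile normalization and in the authors' values, with r from 0.59 to 0.69 and at 0.76, and their ranges on leaving out a replicate number were 0.70 to 0.87 and 0.74 to 0.84. Within slide 1 they gave 0.42 and 0.57, and Krt7 with Krt19 gave 0.79 within slide 3, none of which passed. Krt8 with Krt7 gave 0.31 with normexp, 0.37 with quantile normalization, 0.37 in the authors' values, 0.35 with condition means removed, 0.42 without the 2 farthest pools, 0.20, 0.67 and 0.56 within slides 1 to 3, and 0.37 to 0.55 without a replicate number. Krt18 with Krt7 gave 0.70 with normexp, 0.64 with quantile normalization and 0.67 in the authors' values, all of which passed, but 0.37 with condition means removed, 0.40 without the 2 farthest pools, 0.54, 0.52 and 0.68 within slides, and 0.39 to 0.62 without a replicate number. Krt8 with Cdx2 gave 0.10 with normexp, 0.27 in the authors' values, 0.45 with condition means removed, 0.18 without the 2 farthest pools, 0.61, 0.50 and 0.50 within slides, 0.22 with the other Krt8 probe, and 0.43 to 0.53 without a replicate number. With slide means removed Krt8 with Krt7, Krt18 with Krt7 and Krt8 with Cdx2 gave 0.54, 0.55 and 0.52, all of which passed. Krt8 with Cdx2 also passed for r, though not for rho, at 0.47 with quantile normalization. Krt18 with Krt19 passed at 0.51 with normexp and 0.48 in the authors' values, and Krt8 with Krt19 at 0.47 with the other Krt8 probe. Signs turned among relations that had not passed: Krt18 with Cdx2 to -0.0841 without the 2 farthest pools and -0.0785 within slide 1, Krt7 with Cdx2 to -0.35 within slide 1, and Krt19 with Cdx2 to 0.0188 with slide means removed and 0.15 and 0.0558 within slides 1 and 2. Without a replicate number Krt7 with Cdx2 ran from -0.10 to 0.30 and Krt19 with Cdx2 from -0.18 to 0.0573. The relation of Krt85 with Krt8, seen after the fact, was 0.32 with normexp and 0.53 in the authors' values, settings that both take the other Krt8 probe as the brighter. All Krt8 relations given for those settings, that with Cdx2 included, use that probe.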
